A study of Mus musculus with 3 samples.

Results

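The cells described here are those that the deposited cell table names Undefined1, a cluster that the study left without a cell type. They were chosen by that name alone, and they numbered 447 of 12670 cells from 3 mouse melanomas. Messenger RNA was counted per cell as unique molecular identifiers (UMIs), random tags that let the copies of a captured molecule be counted once. The groups were 1 untreated tumor, 1 tumor that had regressed under vemurafenib, an inhibitor of the mutant BRAF kinase, and 1 that had progressed while on the drug. Per the study's methods, the model carried the Cre-activated Braf LSL.V600E allele and Tyr.CreER on a C57BL/6J background (C57BL/6 in the labels), with or without the Rosa26 LSL.tdTomato reporter, and 4-OH tamoxifen painted on the shaved flank started the tumors. The tyrosinase promoter that drives CreER acts in melanocytes, so these alleles are not designed to recombine in skin epithelium. The age of the mice is not given in the labels.

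The epidermis is renewed from a basal layer that holds the keratins Krt5 and Krt14 and rests on a basement membrane. Cells that leave this layer switch to Krt1 and Krt10 in the spinous layer and then to the loricrin and filaggrin of the granular layer. The hair follicle is an appendage of the same epithelium. Its bulge houses slow-cycling stem cells marked by Krt15, Cd34, Lgr5 and Lhx2, its outer root sheath holds Krt17 and Krt6a, its upper part holds Krt79 and Defb6, and the sebaceous gland attached to it makes lipid with enzymes such as Scd1 and Elovl3.

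Undefined1 made up 3.22% of the untreated tumor's cells (132 of 4095; 95% interval 2.70 to 3.81%), 3.25% of the regressed tumor's (121 of 3726; 2.70 to 3.87%) and 4.0% of the progressed tumor's (194 of 4849; 3.47 to 4.59%). The 3 intervals overlapped. The cells were deep enough to describe single genes: 976643, 620084 and 1570400 UMIs were summed over the untreated, regressed and progressed cells, with medians of 6581, 4296 and 7133 UMIs and of 2666, 2228 and 2812 genes per cell. All levels below are counts per 1000000 UMIs of such a sum (CPM), and 3 values in a row are those of the untreated, regressed and progressed tumors in that order. Each group held 1 tumor and cells are not replicates, so no test between tumors was possible, no p-value is given, and all intervals are exact 95% intervals that cover counting error only. A gene was called different when its ratio passed 2-fold. The regressed library differed as a whole: its Undefined1 cells held 145 UMIs of Y-linked genes and 1 of Xist, against 1 and 1512 in the untreated and 4 and 2455 in the progressed tumor, and their haemoglobin genes reached 3225 CPM against 43.0 and 2.55 CPM. Sex, treatment and library cannot be told apart for that tumor.

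The label of epidermal-like cells held for the basal keratins, while the leading genes, given below, included genes of the hair follicle and sebaceous gland. Krt5 stood at 4712 CPM in Undefined1 against 143 CPM in the 11832 cells outside Undefined1 and the neighboring cluster Undefined2, a 33.0-fold difference, and Krt14 stood at 6730 against 238 CPM, 28.3-fold. After every cell had been thinned to 1000 UMIs, which left 426 Undefined1 cells, 420 (98.6%; 97.0 to 99.5%) held a UMI of Krt5 or Krt14. In the stromal clusters, which should lack these keratins, the share was 16.1% of 7732 cells. This share is used as a background, and whether it came from free RNA was not tested. The median depths before thinning were 6490 UMIs in Undefined1 and 4187 UMIs in stroma. The transcription factor Trp63 (p63), which specifies stratified epithelium, was at 199 CPM against 6.44 CPM, and the hemidesmosome collagen Col17a1 at 371 against 8.99 CPM. A list of 20 general epidermal genes summed to 32934 CPM, 23.8-fold above the other cells. The cluster was made from these same genes, so these values are a description and carry no test.

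The suprabasal keratins were near their level in the other cells. Krt1 was at 39.5 CPM in Undefined1 and at 39.3 CPM in the other cells, and Krt10 at 142 against 101 CPM. A UMI of Krt1 or Krt10 was found in 63 of the 426 thinned cells (14.8%; 11.6 to 18.5%), against 14.4% of stromal cells. The share thus lay near that of stromal cells, and without thinning it was 54.6%. The share was highest in the regressed tumor in both kinds of cell: it was 10.1%, 29.0% and 10.0% in Undefined1 cells and 7.50%, 27.2% and 13.2% in stromal cells. The loricrin gene Lor was at 2.84 CPM and the filaggrin gene Flg at 0.316 CPM (1 UMI).

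Compared with Undefined1, spinous and granular genes were higher in Undefined2. This cluster of 391 cells was the most like Undefined1 of all clusters, with a Pearson correlation of 0.933 across 15239 genes (as a description, since genes share a library and are not replicates), followed by the cluster of dividing cells at 0.898 and the stromal cluster Stroma10 at 0.813. Krt1 stood at 4859 CPM and Krt10 at 5633 CPM in Undefined2, 123-fold and 39.6-fold above Undefined1. Krt5 differed little between the clusters (4712 and 5561 CPM), as did Trp63 (199 and 201 CPM). Krt14 was 2.16-fold lower in Undefined1, and Krt15, a keratin of basal and bulge cells, was 3.02-fold higher at 7312 against 2422 CPM (log2 1.59; 1.56 to 1.63). In thinned cells Krt15 was found in 80.8% of Undefined1, 47.9% of Undefined2 and 6.27% of stromal cells. Of the 12415 genes tested between the clusters, 12.0% were past 2-fold higher in Undefined1 and 5.89% past 2-fold lower, with a median log2 ratio of 0.21, and the list counts below are read beside these shares.

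**Figure D1:**
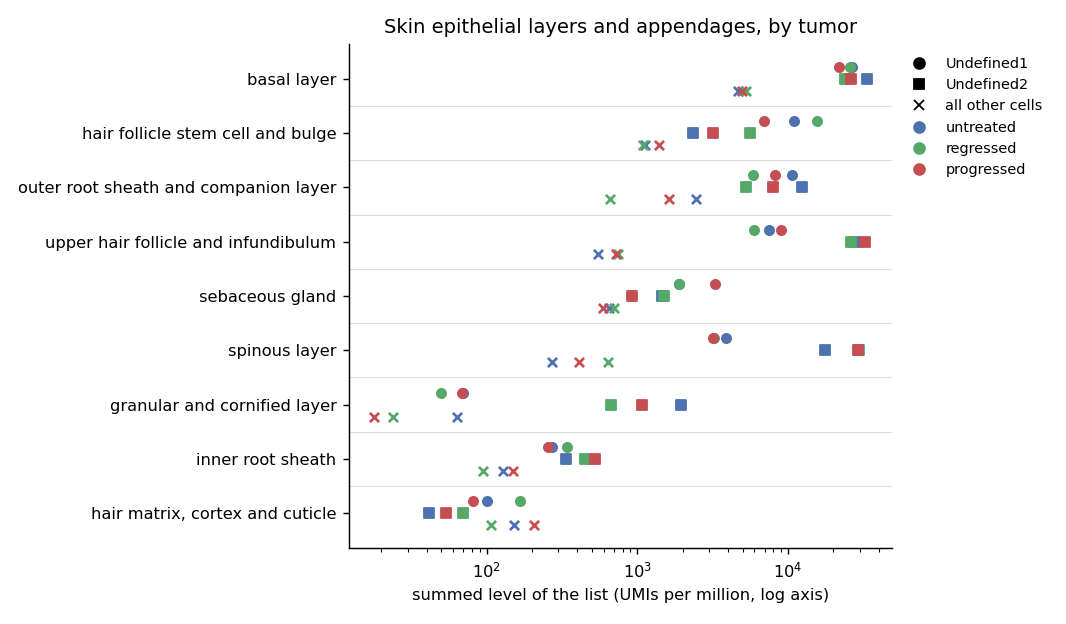
Summed level of 9 skin lists (CPM, log axis) in Undefined1 (circles), Undefined2 (squares) and all other cells (crosses), 1 point per tumor, colored by tumor. The bulge list lies higher in Undefined1 (9847 against 3542 CPM over the 3 tumors), the spinous list higher in Undefined2 (26461 against 3410 CPM).

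Of the 18 measured genes of the spinous layer list, 14 were past 2-fold lower in Undefined1 than in Undefined2 and 0 past 2-fold higher, and the list summed to 3410 against 26461 CPM (log2 -2.96; -2.99 to -2.93). The part that remained came from Dmkn, the secreted protein dermokine (984 against 3675 CPM), Krtdap (776 against 7032 CPM) and Sbsn, suprabasin (743 against 1396 CPM). In the cells outside both clusters the spinous list summed to 405 CPM, so Undefined1 stood above that background and did not lack the list. All 18 tested genes of the granular and cornified layer list were past 2-fold lower, with 65.4 against 1200 CPM for its sum. The desmosome list, the junctions that bind keratinocytes to each other, had 8 of 13 tested genes past 2-fold lower and 0 higher. The wound and stress list had 16 of 20 lower and 1 higher. Its keratin Krt6a stood at 377 against 1560 CPM, and Krt6b at 0.947 CPM (3 UMIs) against 202 CPM. By contrast, the basement membrane and hemidesmosome list differed by a log2 ratio of 0.05 (-0.00 to 0.11), with 13 of its 14 tested genes within 2-fold, and the basal layer list by -0.19 (-0.20 to -0.18), with 16 of 19 within 2-fold.

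Genes of the bulge were higher in Undefined1 than in Undefined2. Of the 18 genes on the bulge list, 13 were past 2-fold higher and 0 past 2-fold lower, and the list summed to 9847 against 3542 CPM (log2 1.47; 1.45 to 1.5). Lgr5, a receptor of follicle stem cells, stood at 46.1 CPM against 0.497 CPM (2 UMIs), a ratio of 92.7 with a log2 interval of 4.66 to 9.59. The bulge transcription factor Lhx2 was at 130 against 12.4 CPM, Tbx1 at 41.4 against 1.99 CPM, and the growth factor Fgf18, known from the resting bulge, at 42.6 against 1.49 CPM (6 UMIs). Sox9, needed for the outer root sheath and its stem cells, was at 397 against 122 CPM, and the secreted factor Ptn at 507 against 65.4 CPM. Cd34 was at 135 against 22.1 CPM, but it was higher still in stromal cells (310 CPM), which also express it. A UMI of Lgr5 or Fgf18 was found in 8.92% of the thinned Undefined1 cells (6.39 to 12.0%), against 0.263% in Undefined2 and 0.569% in stroma.

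**Figure D2:**
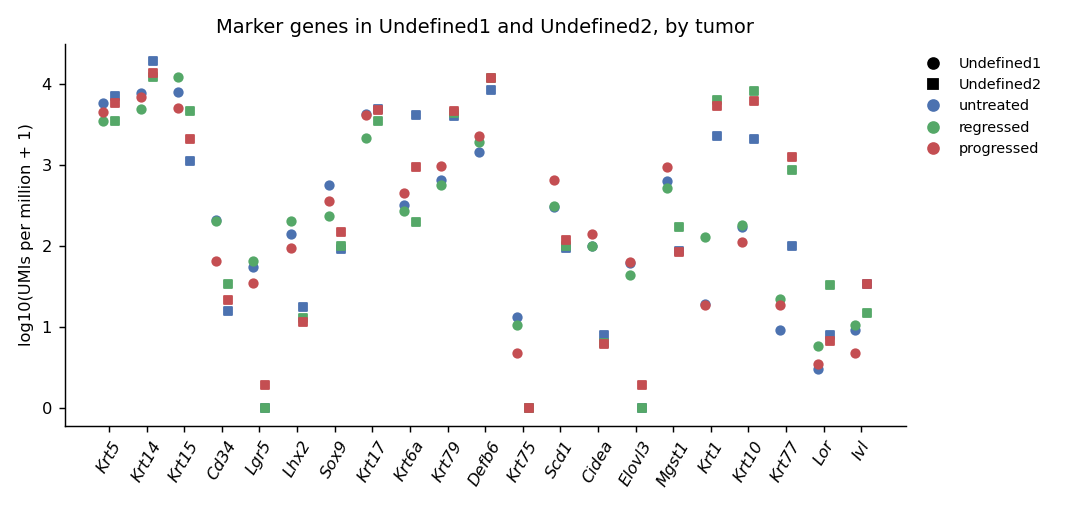
Levels of 21 marker genes, as log10 of CPM plus 1, in Undefined1 (circles) and Undefined2 (squares), 1 point per tumor, colored by tumor. Krt5 is alike in both clusters (4712 and 5561 CPM over the 3 tumors), Lgr5 and Elovl3 lie higher in Undefined1, and Krt1 and Krt10 lie higher in Undefined2.

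Sebaceous gland genes were also higher in Undefined1, from a small part of its cells. Of 17 tested genes, 13 were past 2-fold higher and 1 lower than in Undefined2, and the list summed to 2585 against 1194 CPM (log2 1.11; 1.06 to 1.17). The 40 cells of the sebaceous gland-like subgroup described below carried that sum, at 13687 CPM, and the rest of Undefined1 stood at 746 CPM, below Undefined2. Scd1, the desaturase of fatty acid synthesis, stood at 481 against 108 CPM, the elongase Elovl6 at 212 against 19.6 CPM, and Mgst1, a microsomal glutathione transferase, at 770 against 104 CPM. The lipid droplet protein Cidea was at 119 against 5.72 CPM, and Pparg, the nuclear receptor of sebocyte differentiation, at 25.6 against 0.497 CPM (2 UMIs). These genes were concentrated: a UMI of Cidea, Elovl3 or Far2 was found in 26 of 426 thinned cells (6.10%; 4.03 to 8.82%), against 0.526% in Undefined2 and 0.116% in stroma.

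The outer root sheath list gave no difference in its sum (log2 0.01; -0.01 to 0.03), but its genes split. Of 13 genes, 10 were past 2-fold higher in Undefined1, among them the chemokine Cxcl14 (2696 against 670 CPM), the homeobox factor Barx2 (315 against 126 CPM), the gap junction gene Gjb2 (251 against 67.4 CPM) and the activin antagonist Fst (199 against 38.3 CPM). The 2 that were lower were Krt6a and Krt16, keratins of stressed and suprabasal cells (Krt16 at 20.5 against 1197 CPM), and Krt17 was within 2-fold (3803 against 4537 CPM). Of 12 upper follicle genes, 6 were past 2-fold lower and 2 higher. Krt79 stood at 801 against 4432 CPM, the defensin Defb6 at 1942 against 10913 CPM, and Cst6, a protease inhibitor of the upper follicle, at 483 against 9229 CPM. They were nevertheless above the other cells, at 40.4, 81.6 and 66.0 CPM. Genes of the hair shaft were near absent, with 104 CPM for the list of matrix, cortex and cuticle genes against 167 CPM in the other cells, and Krt8 and Krt18, keratins of simple epithelium, at 1.26 CPM (4 UMIs) and 3.47 CPM (11 UMIs).

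The 20 genes that stood highest over the cells outside both clusters included genes of these programs. Krt15 was 76.4-fold above the other cells. Cidea (202-fold), Elovl3 (133-fold), Fa2h, which hydroxylates fatty acids (139-fold), and Akr1c18, a progesterone-metabolizing reductase (81.9-fold), belong to lipid or steroid metabolism. Tgm5, a transglutaminase, was 136-fold, Wfdc3 117-fold, Mia 115-fold, the endothelin gene Edn2 101-fold, the neurotrophin gene Ntf5 85.8-fold and the tendon transcription factor Scx 75.1-fold higher. Against Undefined2 alone, the 10 highest genes included Nppc, a natriuretic peptide (35.1 against 0.249 CPM, 1 UMI), Il31ra, a subunit of the itch cytokine receptor (25.9 against 0.249 CPM, 1 UMI), and Wfdc18 (40.7 against 0.497 CPM, 2 UMIs). The 10 lowest included the differentiation genes Sprr1b (2.84 against 597 CPM), the metallothionein Mt4 (8.21 against 1055 CPM), the desmosomal cadherin Dsc1 (0.631 CPM, 2 UMIs, against 80.3 CPM) and the cornified envelope gene Cnfn (1.26 CPM, 4 UMIs, against 157 CPM).

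Undefined1 was a mixture of these programs. Clustering its 447 cells again, on values centered within each tumor, gave 6 subgroups, and the genes that define a subgroup are a description, chosen after the values were seen. The largest, subgroup 1 (159 cells), was led by Ccl1 and the lipoxygenase Alox12e (748 CPM), with Defb6 at 4026 and Krt79 at 1146 CPM. It was left unnamed, since its upper follicle list (11281 CPM) lay below that of subgroup 5 (14912 CPM). Subgroup 2 (88 cells) was called bulge-like for Krt15 at 26101 CPM, Cd34 at 675, Fgf18 at 301 and the bulge list at 32998 CPM. Krt15, which is also a keratin of basal cells, gave most of that sum. The name does not rest on the bulge markers Lgr5 and Lhx2. Both were higher in the unnamed subgroup led by Edn2, described below, than over all Undefined1 cells. Subgroup 2 also had the highest spinous list of the 6 subgroups, at 8604 CPM against 2618 CPM in the rest of Undefined1. Subgroup 4 (40 cells) was sebaceous gland-like, with Scd1 at 2921 CPM, Elovl6 at 1373, Cidea at 818 and Elovl3 at 404 CPM, the sebaceous list at 13687 CPM and Krt5 at 784 CPM. Far2, which makes the fatty alcohols of sebum waxes, was at 291 CPM in subgroup 4 and at 0 or 0.766 CPM (1 UMI) in the other five.

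The remaining subgroups were left unnamed as well. Subgroup 5 (38 cells), led by Wfdc18, Pthlh and the gap junction gene Gja1, had the most Krt14 (20454 CPM), Krt17 (13552 CPM) and Krt6a (1575 CPM) and an outer root sheath list at 20618 CPM. Subgroup 3 (85 cells) was led by Edn2, the claudin Cldn10 and the smooth muscle genes Tagln and Acta2, and it had Lgr5 at 168 CPM and Lhx2 at 311 CPM beside Krt15 at 7485 CPM. Subgroup 6 (37 cells) was led by Gpx3, Grp and Sfrp5, and its fibroblast list, all 12 genes of it, summed to 17557 CPM against 2067 to 3335 CPM in the other subgroups, with Dcn at 6682 CPM and Krt15 still at 5638 CPM. Whether its cells were joined to fibroblasts was not tested. In stromal clusters the fibroblast list summed to 55715 CPM.

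**Figure D3:**
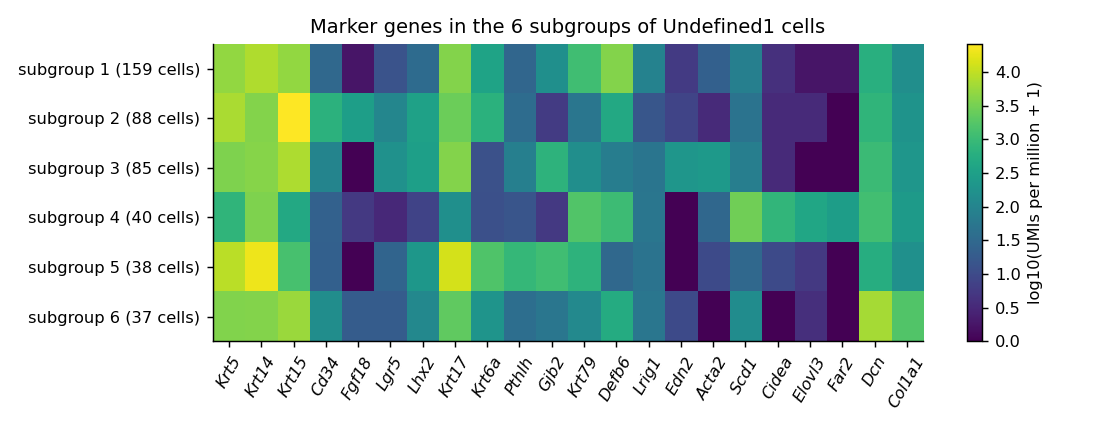
Levels of 22 genes, as log10 of CPM plus 1 (color), in the 6 subgroups of Undefined1 cells (rows, numbers of cells in brackets). Krt5 and Krt14 run through all subgroups, while Fgf18 and Cd34 peak in subgroup 2, Scd1, Cidea, Elovl3 and Far2 in subgroup 4, and Dcn and Col1a1 in subgroup 6.

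The deposited clustering put dividing cells apart, in a Dividing cluster of 265 cells that held Krt5 at 1798 CPM, Krt14 at 2585 CPM and Krt15 at 648 CPM, so what Undefined1 holds is not the share of keratinocytes that divided. A UMI of Mki67 or Top2a, genes of dividing cells, was found in 3.99% of the Undefined1 cells at 1000 UMIs per cell (2.34 to 6.31%), against 2.11% in Undefined2 and 0.388% in stroma. The cell cycle list summed to 665 CPM, against 510 and 239 CPM. Krt15 and a sebaceous gene (Cidea, Elovl3 or Far2) were found in the same thinned cell in 8 of 426 cells (1.88%). Melanocyte genes were not a feature of the cluster: their list summed to 272, 281 and 294 CPM in the 3 tumors, mostly S100a1, and the transgene features tdTomato and tWPRE summed to 37.3 CPM against 40.7 CPM in stroma. In the clusters of tumor cells both transgene features were found in each tumor, with sums of 2535, 1359 and 4239 CPM.

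Between tumors, the question was whether these skin cells differed as the tumor around them regressed and progressed. In Undefined1 of the regressed over the untreated tumor, 993 of 8856 tested genes (11.2%) were past 2-fold higher and 367 (4.14%) past 2-fold lower. This split followed the scaling, since with TMM factors it was 695 against 608, and the median log2 ratio of all tested genes moved from 0.13 to -0.07. Progressed over regressed, 510 of 9669 genes (5.27%) were higher and 1153 (11.9%) lower, or 859 and 715 with TMM factors, where the median moved from -0.14 to 0.09. Progressed over untreated, 396 of 9863 genes (4.02%) were higher and 344 (3.49%) lower, or 436 and 332 with TMM factors. The pair of untreated and progressed tumors had the fewest genes past 2-fold. Both other pairs held the regressed tumor, whose sum had the fewest UMIs. At the depths of the regressed and untreated sums, 3.25% of genes simulated without a change passed 2-fold. The simulation held counting error only, without differences between cells, so this share is not a full background for the real genes. The part of depth in the counts of genes past 2-fold was not tested. Ratios near 0.2 in the pairs with the regressed tumor lie within the shift that scaling gives. The comparisons share tumors and are not independent of each other.

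**Figure D4:**
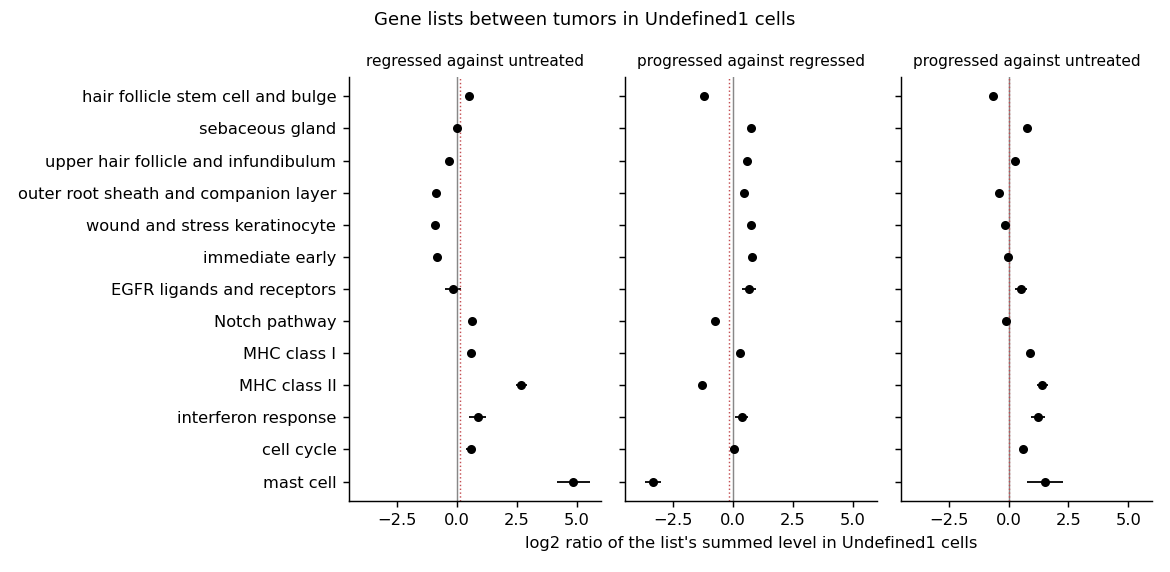
Log2 ratios of the summed level of 13 gene lists in Undefined1 cells for the 3 pairs of tumors, with exact 95% intervals (horizontal bars; counting error only). The solid line marks 0 and the dotted line the median of all tested genes. The bulge list lies at 0.52, -1.18 and -0.66, the MHC class I list at 0.57, 0.32 and 0.89.

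Bulge genes were lowest in the progressed tumor. The list summed to 10923, 15632 and 6893 CPM. Its log2 ratio was 0.52 (0.48 to 0.56) for regressed over untreated, -1.18 (-1.22 to -1.14) for progressed over regressed and -0.66 (-0.70 to -0.63) for progressed over untreated. Progressed over regressed, 7 of 17 tested genes were past 2-fold lower and 0 higher, beside 11.9% of all genes lower. Progressed over untreated, 6 of 18 were lower and 0 higher, beside 3.49%. Regressed over untreated, 3 were higher and 3 lower, beside 11.2% and 4.14%. In Undefined2 the same list gave 1.25, -0.80 and 0.45, and whether the clusters differ for progressed over untreated was not tested.

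Krt15 carried much of this sum, at 7877, 12250 and 5011 CPM. Its level in stromal cells was also highest in the regressed library, at 19.5, 246 and 19.3 CPM. Without Krt15 the list gave 0.15, -0.85 and -0.69. Cd34 stood at 206 and 202 CPM in the untreated and regressed tumors and at 64.3 CPM in the progressed one, 3.20-fold lower than untreated, whereas in stroma it was highest in the progressed tumor (230, 237 and 401 CPM). Fgf18 stood at 26.6, 152 and 9.55 CPM, 5.69-fold higher under regression than without treatment (log2 2.51; 1.87 to 3.20) and 15.9-fold lower in the progressed than in the regressed one, from 26, 94 and 15 UMIs in 11, 18 and 7 cells. Its stromal level was 4.69, 4.36 and 7.05 CPM. Aqp3, a water and glycerol channel of keratinocytes, followed the same order at 143, 335 and 67.5 CPM. Sox9 did not, at 561, 232 and 360 CPM.

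The order was also seen inside the bulge-like subgroup, where the list stood at 33146, 44336 and 23717 CPM over 32, 28 and 28 cells. These genes helped to define that subgroup, which held 13830 of the list's 31186 UMIs. Its order is therefore not independent of the pooled one. There Krt15 stood at 25952, 35909 and 18353 CPM, Fgf18 at 165, 778 and 53.9 CPM, and Cd34 at 926, 837 and 290 CPM. It did not hold in subgroup 1, where the list stood at 5660, 11030 and 6110 CPM, in subgroup 3 (11447, 9872 and 9419 CPM), in the sebaceous gland-like subgroup (832, 998 and 1256 CPM) or in subgroup 6 (10343, 6165 and 6044 CPM). The numbers of cells per subgroup are not compared between tumors, because genes that define the subgroups differed between them.

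**Figure D5:**
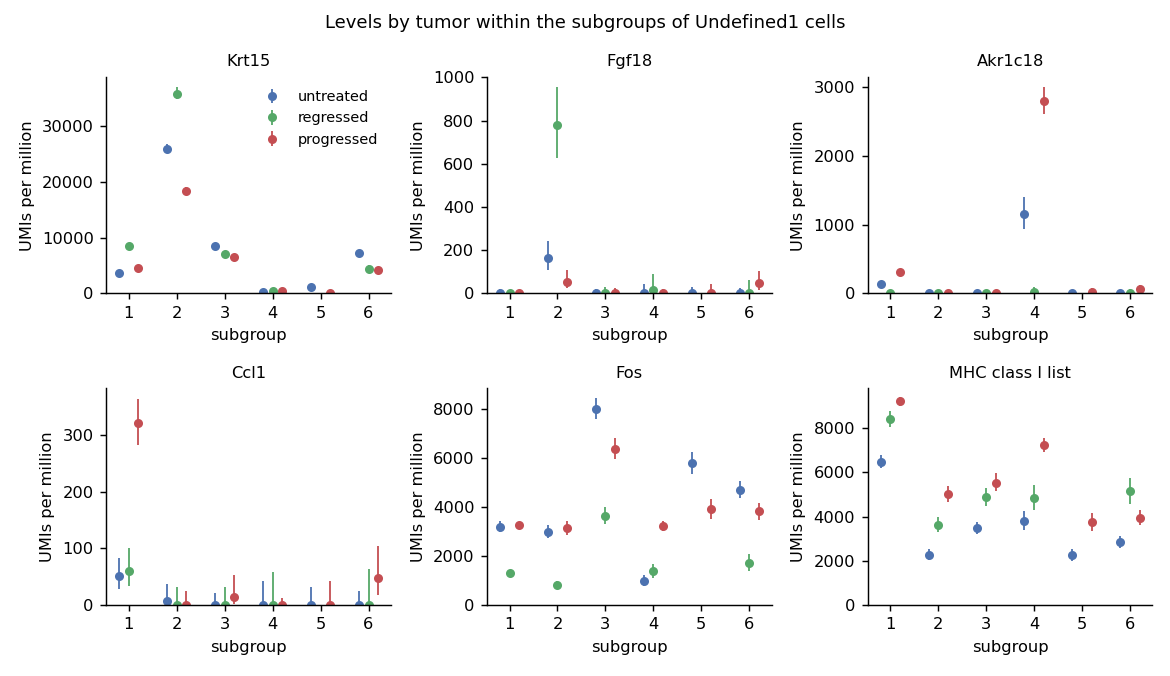
Levels of 5 genes and the MHC class I list (CPM) within each subgroup of Undefined1 cells by tumor, with exact 95% intervals (vertical bars; counting error only); tumors with under 5 cells in a subgroup are left out. Krt15 and Fgf18 are highest in the regressed tumor in subgroup 2, and Akr1c18 in the progressed tumor in subgroup 4.

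Over all Undefined1 cells, sebaceous genes had their highest sum in the progressed tumor. The list summed to 1907, 1906 and 3275 CPM. In the same order of pairs, the log2 ratio was 0.00 (-0.11 to 0.11), 0.78 (0.69 to 0.87) and 0.78 (0.70 to 0.86). Of 14 tested genes, 5 were past 2-fold higher and 0 lower for progressed over regressed, beside 5.27% of all genes higher, and 5 of 15 over untreated, beside 4.02%. Scd1 stood at 304, 313 and 658 CPM, Elovl6 at 113, 144 and 300 CPM, and Acsbg1, an acyl-CoA synthetase, at 92.2, 105 and 250 CPM, while in stroma Scd1 was at 149, 224 and 146 CPM. Within the sebaceous gland-like subgroup the list was not highest in the progressed tumor, at 14947, 12466 and 13576 CPM over 7, 7 and 26 cells. The higher pooled sum was thus not seen as a higher level within these cells. The part that the number of such cells has in the pooled sum was not tested.

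Akr1c18, the reductase named above, headed the genes that were higher in the progressed than in the regressed tumor. The untreated tumor held it at 143 CPM (140 UMIs in 11 cells), the regressed one at 3.23 CPM (2 UMIs in 2 cells) and the progressed one at 696 CPM (1093 UMIs in 47 cells). The progressed tumor was 4.86-fold above the untreated one (log2 2.28; 2.03 to 2.54), and against the regressed one the ratio was 216 (log2 7.75; 5.90 to 10.8). In stromal cells it was at 0.426, 1.71 and 2.84 CPM. Within the sebaceous gland-like subgroup it stood at 1152, 15.8 (1 UMI) and 2803 CPM, and within subgroup 1 at 131, 4.25 (1 UMI) and 316 CPM. The related reductase Akr1c19 was at 11.3 CPM, at 0 UMIs and at 64.3 CPM, at least 13.3-fold higher in the progressed than in the regressed tumor with 0 set to a floor of 3 UMIs.

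The wound and outer root sheath lists had their lowest sums in the regressed tumor. The wound list summed to 5744, 3056 and 5248 CPM, beside 743, 599 and 91.1 CPM in stroma. Regressed over untreated, 4 of its 11 tested genes were past 2-fold lower and 1 higher, beside 4.14% and 11.2% of all genes. Progressed over regressed, 5 of 12 were higher and 4 lower, beside 5.27% and 11.9%. The outer root sheath list summed to 10655, 5880 and 8178 CPM and had the same order in stroma, at 3297, 840 and 1890 CPM. Its genes were split, with 3 of 12 past 2-fold lower and 3 higher for regressed over untreated, and 1 of 12 each way for progressed over regressed. Krt17, which is on both lists and gave most of the wound sum, stood at 4250, 2179 and 4167 CPM, just under 2-fold lower in the regressed tumor. Lcn2, the iron-binding lipocalin of stressed keratinocytes, was at 156, 27.4 and 189 CPM, the EGFR ligand Hbegf at 69.6, 21.0 and 120 CPM, and Edn1, which signals to melanocytes, at 39.9, 9.68 and 117 CPM, all past 2-fold lower in the regressed than in each other tumor. Cxcl14 was at 4393, 1695 and 2035 CPM, but stromal cells gave 3097, 530 and 1693 CPM. Fst went the other way at 123, 490 and 132 CPM, past 2-fold higher in the regressed than in each other tumor, beside 25.8, 40.2 and 16.4 CPM in stroma. Ccl27a, the skin T cell chemokine, stood at 125, 432 and 299 CPM, past 2-fold above untreated in both treated tumors, and at 3.69 to 5.76 CPM in stroma.

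The immediate early list, genes induced within minutes of stress or growth signals, summed to 17009, 9562 and 16582 CPM. Regressed over untreated, 8 of 15 genes were past 2-fold lower and 1 higher, beside 4.14% and 11.2% of all genes. Fos stood at 4360, 1671 and 3594 CPM, the stress factor Atf3 at 764, 115 and 718 CPM and the phosphatase gene Dusp1 at 824, 295 and 752 CPM, while Jund was opposite at 160, 1040 and 211 CPM. Stromal cells had the same order, with 18930, 10329 and 18242 CPM for the list and 308, 1258 and 308 CPM for Jund. Cebpb, a transcription factor of keratinocyte differentiation, was likewise higher in the regressed tumor in both (32.8, 574 and 75.8 CPM in Undefined1, and 57.4, 339 and 51.5 CPM in stroma). The part of the library in these values was not tested.

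The MHC class I list, genes of the complex that presents peptides to T cells, had its highest sum in the progressed tumor. It summed to 3986, 5928 and 7396 CPM, and the log2 ratio was 0.57 (0.51 to 0.64) for regressed over untreated, 0.32 (0.27 to 0.37) for progressed over regressed and 0.89 (0.84 to 0.94) for progressed over untreated. Single genes were mostly within 2-fold, with 2 of 9 past it, both higher, for progressed over untreated, beside 4.02% of all genes, and 0 in the other pairs. B2m, the light chain, stood at 1910, 2811 and 3768 CPM, the heavy chain H2-K1 at 735, 1061 and 1498 CPM, and the immunoproteasome subunit Psmb9 at 43.0, 71.0 and 125 CPM. The heavy chain H2-D1 was highest in the regressed tumor instead, at 852, 1503 and 1336 CPM. The same order of the list was seen in Undefined2 (4052, 5498 and 6710 CPM) and in stroma (1916, 2504 and 3441 CPM), and it held in subgroup 1 (6481, 8417 and 9219 CPM), subgroup 3 (3468, 4873 and 5545 CPM) and the bulge-like (2275, 3615 and 5014 CPM) and sebaceous gland-like (3808, 4847 and 7241 CPM) subgroups. In subgroup 6 the regressed tumor was highest instead, at 2834, 5137 and 3936 CPM over 14, 7 and 16 cells. In the clusters of tumor cells the regressed tumor was lowest, at 3986, 2602 and 6643 CPM. Subgroup 5 held 3 regressed cells and gave 2256 CPM in the untreated and 3743 CPM in the progressed tumor.

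Interferon response genes summed to 128, 234 and 302 CPM, and 5 of 8 tested genes were past 2-fold higher in the progressed than in the untreated tumor, beside 4.02% of all genes. In stroma the list stood at 341, 303 and 524 CPM. Some of the list's UMIs came from few cells, as did those of Ccl1 and Ubd, which are not on the list. The chemokine Cxcl9, induced by interferon-gamma, stood at 8.19, 9.68 and 59.9 CPM, and 41 of its 94 UMIs in the progressed tumor lay in 1 cell. The chemokine Ccl1 stood at 16.4, 22.6 and 164 CPM, with 257 UMIs in 16 cells of the progressed tumor and 103 of them in 1 cell. Ubd, a ubiquitin-like modifier, had 0 UMIs in the untreated and regressed tumors and 48 in the progressed one (30.6 CPM), from 3 cells. In the progressed tumor nearly all Ccl1 and Cxcl9 and all Ubd UMIs were in subgroup 1 (249, 88 and 48 UMIs).

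Several other genes named by the size of their ratio rested on few cells. Nppc had 78, 1 and 32 UMIs, 22 of the last in 1 cell. Nppb had 80 UMIs, all in the progressed tumor, 45 of them in 1 cell. Sfrp5, a secreted Wnt inhibitor, had 40, 2 and 1 UMIs, 26 of the 40 in 1 cell. Cldn10 was spread more widely, with 30, 31 and 4 UMIs from 9, 12 and 4 cells. Tmem238 was at 3.07, 62.9 and 54.1 CPM from 3, 30 and 57 cells, beside 2.49, 15.1 and 7.50 CPM in stroma. The acute-phase gene Saa3 was at 92.2 and 4.84 CPM (3 UMIs) and at 0 UMIs, beside 1345, 15.4 and 2.67 CPM in stroma, and the neutrophil gene Retnlg had 66, 11 and 1 UMIs in Undefined1. Ifitm1, an interferon-induced membrane protein, stood at 94.2, 56.4 and 5.73 CPM, beside 693, 348 and 151 CPM in stroma.

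Immune gene lists in Undefined1 had the same order of tumors as in stroma. The mast cell list summed to 20.5, 581 and 58.0 CPM in Undefined1 and to 17.3, 577 and 65.6 CPM in stroma, with 6, 7 and 8 of its 8 genes found in Undefined1. Its genes Tpsb2 (3.07, 182 and 16.6 CPM), Cpa3, Mcpt4 and Cma1 were among the 10 genes with the largest ratios for regressed over untreated. The neutrophil list summed to 812, 460 and 45.2 CPM against 735, 458 and 10.9 CPM, with 8, 6 and 3 of 8 genes found, which covers S100a8 and S100a9 on the wound list. The macrophage list, with all 12 genes found in each tumor, summed to 138, 547 and 117 CPM against 138, 419 and 117 CPM, and the T cell list to 4.10, 102 and 1.91 CPM against 3.69, 108 and 3.35 CPM. MHC class II genes gave 209, 1332 and 552 CPM against 158, 1077 and 343 CPM. The part of free RNA in these lists was not tested, and none of them is read here as expression by Undefined1 cells.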

How the data were processed

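Droplet libraries of 3 tumors were sequenced from transcript ends. Per the study's methods, the authors aligned reads with GSNAP to GRCm38, counted uniquely aligned reads in sense over exons, collapsed them to UMIs, and clustered cells with Seurat 2.2.0. The deposited matrices hold UMI counts per feature and cell (36530 features, of which 31051 were given symbols here). The deposited cell table holds cluster names (unit other) and counts of UMIs and genes made by the authors. Column sums of Undefined1 cells exceeded those deposited totals by medians of 6.09, 5.03 and 5.94% in the untreated, regressed and progressed tumor, and the sums were used. No sample column was left unused, and no cell name was shared between tumors (names are not barcode sequences). Unique alignment can lose reads between near-identical genes such as Krt6a and Krt6b, or H2-K1 and H2-D1, whose values are uncertain.

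UMIs were summed over cells of a tumor and cluster and scaled to the total (CPM). Shares carry Clopper-Pearson, levels Poisson and ratios conditional binomial 95% intervals. A count of 0 against a higher one was set to a floor of 3 UMIs. Genes with at least 20 UMIs over both groups were tested for passing 2-fold. Cells were thinned to 1000 UMIs with a fixed seed for shares. Undefined1 cells were clustered again in scanpy 1.11.5 (1500 variable genes, 12 components, 15 neighbours, Leiden resolution 0.5). TMM factors came from edgeR 4.0.16. Scrublet marked 6 of 12670 cells (0.0474%), none of them in Undefined1, so it did not work here, and doublets were kept. Scripts were tested on simulated data.

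The members, the 41 gene lists and the tests were chosen with earlier results of these data known. Genes were named as the 2 to 5 highest of a list, the 20 highest over other cells with at least 50 UMIs, the 10 highest and lowest against Undefined2, and the 10 highest and lowest per pair of tumors with at least 30 UMIs, leaving out Xist, Y-linked, haemoglobin and mitochondrial genes and unnamed or duplicate features. Other genes were chosen after their values were seen, as were the subgroups. List genes without a matching feature are not analysed here. A further element of the mouse model's genotype is not reported here.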

Additional observations from a re-analysis of the deposited data

Results flagged for a closer look

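Lists whose ratio between tumors ran in opposite directions in Undefined1 and Undefined2, by a log2 ratio of at least 0.5 in each, are given here. The difference between the clusters was not tested, since each group held 1 tumor.

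The cell cycle list gave 0.58 (0.39 to 0.77) in Undefined1 and -1.14 in Undefined2 for regressed over untreated, and 0.62 (0.46 to 0.77) and -1.61 for progressed over untreated. In Undefined1 it summed to 488, 731 and 750 CPM (untreated, regressed, progressed), and in Undefined2 to 972, 441 and 318 CPM. The chromatin protein Hmgb2 stood at 64.5, 168 and 84.1 CPM in Undefined1, and Mki67 at 22.5, 40.3 and 24.8 CPM. The share of thinned Undefined1 cells with Mki67 or Top2a was 2.33, 5.61 and 4.21%, from 3, 6 and 8 cells. The deposited clustering put dividing cells, some with Krt5 and Krt14, in a cluster apart. What remained in Undefined1 and Undefined2 thus does not give the share of keratinocytes that divided in a tumor.

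The sebaceous gland list gave 0.78 in Undefined1 and -0.71 in Undefined2 for progressed over regressed, and 0.78 and -0.65 for progressed over untreated. Its sum in Undefined2 was 1454, 1512 and 928 CPM.

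The list of simple epithelium, sweat gland and Merkel cell genes gave -0.74 (-1.29 to -0.18) in Undefined1 and 0.69 in Undefined2 for progressed over untreated, from sums of 59.4 and 35.7 CPM in untreated and progressed Undefined1 cells. Krt19 was its main gene there, at 30.7, 16.1 and 10.8 CPM in the same order, beside 26.6 CPM in stroma.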

How the results depend on the processing

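Of 507 values computed again under an alternative, 314 stayed within the interval or within 1.5 times of a count, and 184 moved. Another 9 changed sign from a reported value whose interval left out 0. Changes of sign where the reported interval held 0 were not counted apart. The 9 sign changes are these. The immediate early list for progressed over untreated, -0.04 as reported, was 0.031 with equal weight per cell, 0.00095 in thinned cells, 0.038 without its gene with the most UMIs and 0.0036 with median-of-ratios scaling. Without the gene with the most UMIs, the upper follicle list for regressed over untreated was 0.20, and the list of keratinocyte signals, then without Cxcl14, was 0.31 for regressed and 0.48 for progressed over untreated. The interferon list for progressed over regressed was -0.054 with equal weight and -0.037 without the deepest 5% of cells. The causes were not tested.

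The bulge list kept its directions. For regressed over untreated it was 0.39 with equal weight, 0.44 thinned, 0.56 without the deepest 5% of cells, 0.64 without the top 5% of Scrublet scores (47 Undefined1 cells), 0.59 without the subgroup led by fibroblast genes, 0.15 without Krt15, 0.32 with TMM and 0.33 with median-of-ratios scaling. For progressed over regressed the values were, in that order, -1.05, -1.12, -1.29, -1.30, -1.25, -0.85, -0.95 and -0.96. For progressed over untreated it was -0.72 without the deepest cells and -0.62 with median-of-ratios scaling. The Scrublet and fibroblast settings were chosen after seeing the data. The top 5% of scores, taken over all cells of each tumor, held 47 of 447 Undefined1 and 23 of 391 Undefined2 cells. Since Scrublet did not work here, this setting does not show whether doublets matter. The MHC class I list was 0.64 thinned, 0.38 with TMM and 0.39 with median-of-ratios scaling for regressed over untreated. For progressed over regressed it was 0.22 without the deepest cells, 0.22 without B2m, 0.55 with TMM and 0.54 with median-of-ratios scaling, and for progressed over untreated 0.82 and 0.80 under the first pair of these settings.

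Against Undefined2, the bulge list was 1.62 thinned, 1.57 without the deepest cells, 1.54 without the top Scrublet scores, 1.51 without the fibroblast-led subgroup and 1.18 without Krt15. The spinous list was -2.65 with equal weight, -2.55 thinned, -2.91 without that subgroup and -3.23 without its top gene. Cells of Undefined1 and Undefined2 together made up 5.18, 5.99 and 8.31% of the untreated, regressed and progressed tumors. With at least 2 UMIs asked, 95.8% of cells held Krt5 or Krt14, 2.35% Krt1 or Krt10 and 2.11% both, and without thinning 54.6% held Krt1 or Krt10 and 54.1% both.

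Counts of genes past 2-fold fell with a minimum of 50 UMIs and grew with none, by construction. They were 407 and 3979 higher and 144 and 865 lower for regressed over untreated, 264 and 809 higher and 516 and 5047 lower for progressed over regressed, and 185 and 942 higher and 111 and 2978 lower for progressed over untreated. With TMM factors they were 608 lower in the first pair, and 859 higher and 715 lower in the second. The counts with no minimum include genes without UMIs in a tumor, which were set to the floor of 3 UMIs. That floor can exceed the count in the other tumor and so reverse the direction of a ratio. The counts with no minimum are thus not read as numbers of genes that differed.

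Leaving out cells with 3 or more UMIs of other cell types gave no value, since it left 6 of 447 cells. No paired analysis was possible because each group held 1 tumor. Depth limits genes under about 3 UMIs, which are given with their counts.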

Other observations

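Glycolysis and hypoxia genes summed to 2472, 1935 and 3193 CPM in untreated, regressed and progressed Undefined1 cells. Progressed over regressed, the log2 ratio was 0.72 (0.63 to 0.81), with 3 of 13 tested genes past 2-fold higher and 1 lower, beside 5.27% and 11.9% of all genes. In Undefined2 the ratio was 0.26.

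Notch pathway genes, which drive the switch to the spinous layer and the fate of follicle cells, summed to 778, 1211 and 725 CPM. Regressed over untreated, 4 of 11 tested genes were past 2-fold higher and 1 lower, beside 11.2% and 4.14% of all genes, or 695 and 608 of 8856 genes with TMM factors. The target gene Hes1 stood at 328, 569 and 243 CPM, and stromal cells held it at 324, 520 and 235 CPM. In Undefined2 the list gave a log2 ratio of 1.47.

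The MAPK target list, genes that follow signalling through the kinase cascade below Braf, summed to 538, 392 and 476 CPM. Of 5 tested genes 0 passed 2-fold for regressed over untreated, and for progressed over regressed 1 of 6 was higher, beside 5.27% of all genes. Undefined2 gave log2 ratios of -1.19 and 1.24 for the same pairs, against -0.46 and 0.28 in Undefined1. Against Undefined2 over the 3 tumors, 5 of 9 genes of this list were past 2-fold higher in Undefined1 and 1 lower, beside 12.0% and 5.89% of all genes.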
